A study of Homo sapiens with 6 samples.

Results

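H/ACA box small nucleolar RNAs (symbols starting with SNORA) and small Cajal body RNAs (symbols starting with SCARNA) were followed in A549 cells, an established line from a human lung adenocarcinoma. They were chosen by symbol in the platform's annotation, and where a gene had several probe sets of its own, the one with the highest mean signal over the 6 arrays was taken. This gave 77 RNAs, 61 SNORA and 16 SCARNA, of 18417 genes measured, and RefSeq lists the 61 as snoRNAs and the 16 as other non-coding RNAs. The mean signal that chose the probe sets is used here only as a description. Control stable A549 cells (3 arrays) were compared with stable A549 cells labelled H2AX knockdown (3 arrays). All 6 samples, the controls included, were starved of serum overnight and then given VP-16 for 48 h. VP-16 is etoposide, which poisons topoisomerase II and so leaves breaks in DNA. The knockdown construct, the control construct and the number of stable lines or clones behind each group are not given in the sources used here, and no untreated cells were analysed here.

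H/ACA RNAs fold into paired hairpins and sit in a ribonucleoprotein with the pseudouridine synthase dyskerin (DKC1) and the small proteins GAR1, NHP2 and NOP10. Each one base-pairs with a target and directs the conversion of a uridine to pseudouridine, in ribosomal RNA for most SNORA and in the spliceosomal small nuclear RNAs for most SCARNA, which gather in Cajal bodies. Some SCARNA also or only carry C/D boxes, the elements that guide 2′-O-methylation. In human cells most of these RNAs are cut out of introns of a host gene and have no promoter of their own, so their amount depends on transcription of the host and on how well the RNA is protected by its proteins once the intron is spliced out. They carry no poly(A) tail. A probe set for such an RNA lies within the host's intron, so a signal from the mature RNA and one from the unspliced host transcript cannot be told apart here.

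Signals are log2 values, so that a difference of 1 is a doubling. The signal of H2AX read 5.11, 5.27 and 5.26 in control replicates 1, 2 and 3 and 5.28, 5.17 and 5.49 in the knockdown-labelled ones. The groups overlapped, and the level was not lower under the knockdown label (difference 0.100, limma adjusted p = 0.823). Directions below are therefore those of the arrays labelled H2AX knockdown, not of a measured loss of H2AX. In the controls the epithelial markers KRT8 and KRT18 read 9.69 and 8.67, EPCAM 2.42 and SFTPC, a marker of alveolar cells, 3.19 (means, n = 3), and levels of different probe sets are not set against each other. Of 5 blood and immune markers PTPRC read 2.07, CD3E 2.15, LYZ 3.19, CD14 4.14 and CD68, a lysosomal protein of macrophages, 8.93. CD68 was lower without overlap under the knockdown label (difference −0.46, unadjusted p = 0.0254, limma adjusted p = 0.364). So was AKR1C1, of the epithelial list (difference −0.58, unadjusted p = 0.00895, limma adjusted p = 0.305). LUM, of the fibroblast list, was higher with overlap (difference 0.47, unadjusted p = 0.0321, limma adjusted p = 0.376). The endothelial marker PECAM1 read 3.02. None of the measured markers of epithelial, fibroblast, blood or endothelial cells passed the threshold in limma. The fibroblast list as a whole (6 of 6 measured) had array means of 3.14 to 3.41 in the controls and 3.38 to 3.81 in the knockdown-labelled arrays, and its part in the results was not tested. In bulk RNA, fewer cells with an RNA and less of it per cell cannot be told apart. Bright genes read lower under the knockdown label and dim genes higher, which is set beside the results below.

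The RNAs leaned upwards in the knockdown-labelled arrays, but no single one passed the test over all genes. Of the 77, 63 had a difference (knockdown-labelled minus control) above 0, where 48.5% of all genes did, and 14 were below it. The median difference was 0.16, against −0.011 over all genes, and the values ran from −1.06 for SNORA62 to 0.75 for SNORA80E. At an adjusted p under 0.05 (limma, Benjamini-Hochberg over all genes) 0 of the 77 were called, where 0.0326% of genes were (0.00543% higher and 0.0271% lower). The smallest adjusted p of the 77 was 0.218. At an unadjusted p under 0.05, 13 were higher and 1 lower, where 3.78% of all genes were higher and 8.38% lower. The 13 make up 16.9% of the RNAs. The 3 knockdown-labelled arrays lay above all 3 controls for 14 RNAs, or 18.2%, where 7.17% of genes did, and below them for 1, where 9.82% did. All but 1 of the differences were smaller than 1 on the log2 scale, and 10 were 0.5 or more upwards.

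**Figure D1:**
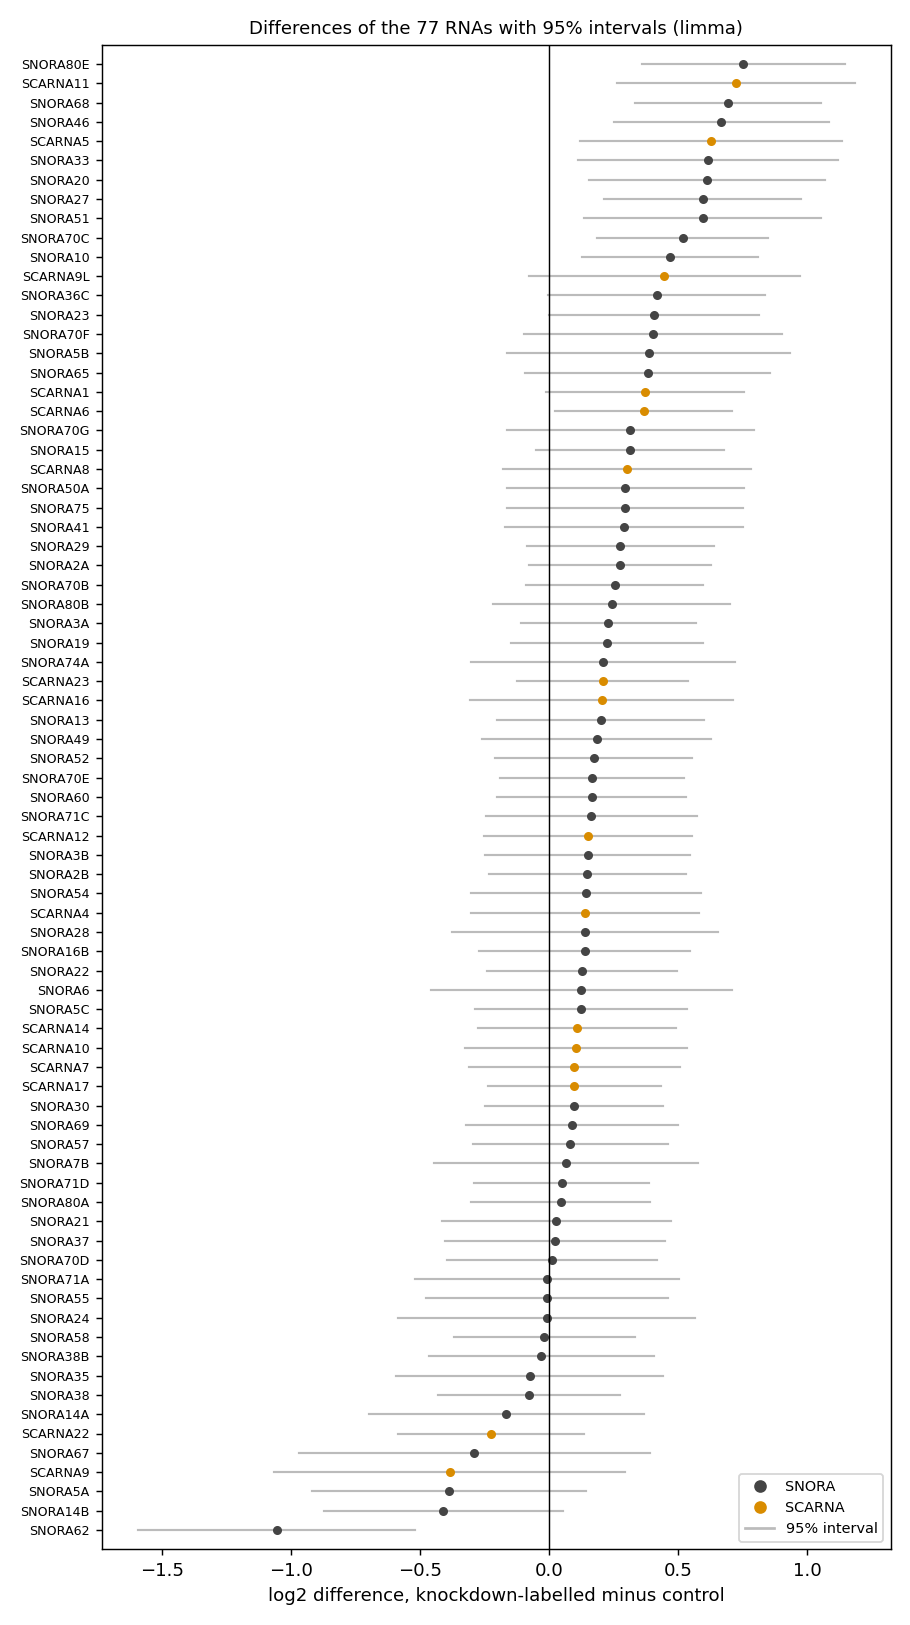
Log2 difference (knockdown-labelled minus control, 3 arrays each, horizontal axis) of each of the 77 RNAs, ordered by size, with its 95% interval from limma; SNORA are dark and SCARNA orange. Points lie right of 0 for 63 RNAs, and SNORA62 stands alone at the lower end with −1.06.

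SNORA80E, also named SNORA42, had the largest upward difference. Its log2 signal (probe set 7920873) was 5.59, 5.51 and 5.88 in control replicates 1, 2 and 3 and 6.12, 6.62 and 6.50 in the knockdown-labelled replicates. Every knockdown-labelled array was above every control. The difference was 0.75 ± 0.182 (SE), a 1.69-fold higher signal, with a 95% interval of 0.36 to 1.15 and a limma adjusted p of 0.224.

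SNORA68, which guides modification of 28S ribosomal RNA, was among the brightest of the RNAs, at the 98.2th percentile of all genes. It read 7.03, 6.97 and 7.39 in the controls and 7.78, 7.89 and 7.79 under the knockdown label (probe set 8026875). The knockdown-labelled arrays lay close together and above all controls. The difference was 0.69 ± 0.167 (SE), with a limma adjusted p of 0.224.

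SNORA46 and SNORA20, both guides for 18S ribosomal RNA, had no overlap either. SNORA46 read 3.24, 2.91 and 3.53 in the controls and 4.15, 3.74 and 3.79 under the knockdown label, a difference of 0.67 ± 0.193 (SE, limma adjusted p = 0.279). SNORA20 read 6.41, 5.99 and 6.71 and then 6.88, 7.32 and 6.75, a difference of 0.61 ± 0.211 (SE, limma adjusted p = 0.316). Control replicate 3 gave the highest control value for both, and for SNORA20 it nearly reached the lowest knockdown-labelled one.

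SNORA10, which lies in the ribosomal protein gene RPS2, read 6.01, 6.20 and 6.31 in the controls and 6.69, 6.63 and 6.60 under the knockdown label, so that the second group was tight and fully above the first. Its difference was 0.47 ± 0.158 (SE, limma adjusted p = 0.314). A further probe set named for SNORA10 held the same values in all 6 arrays and adds nothing. SNORA51 read 3.84, 4.14 and 4.22 and then 4.57, 4.28 and 5.13, with the knockdown-labelled arrays spread more widely than the controls (difference 0.60, limma adjusted p = 0.327).

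At the dim end, SNORA27, which guides 28S ribosomal RNA, read 1.95, 1.95 and 2.12 in the controls and 2.71, 2.29 and 2.82 under the knockdown label. SNORA70C, a copy of the SNORA70 family, read 2.17, 2.13 and 2.18 and then 2.75, 2.73 and 2.56. Neither overlapped between the groups, and their differences were 0.60 and 0.52 (limma adjusted p = 0.28 for both). Both sit in the dimmest of 5 equal bins of all genes by mean signal, where 81.7% of genes were above 0 and 19.1% did not overlap upwards.

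SNORA62, known as E2 and a guide for 28S ribosomal RNA, went the other way. It read 3.62, 4.16 and 3.94 in the controls and 2.80, 3.44 and 2.32 under the knockdown label (probe set 8078918). All 3 knockdown-labelled arrays were below the controls, with more spread among them. The difference was −1.06 ± 0.249 (SE), with a 95% interval of −1.59 to −0.52 and a limma adjusted p of 0.218. Array weights count control replicate 3 far above the other arrays (weight 5.03, others 0.41 to 1.22). With them SNORA62 (−0.96, limma adjusted p = 0.0469) and SNORA80E (0.69, adjusted p = 0.0488) passed the threshold, and no other of the 77 did. Over all 18417 genes 191 passed with these weights, against 6 without them.

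The other SNORA below 0 differed less. SNORA14B was at −0.41, SNORA5A at −0.39, SNORA67 at −0.29 and SNORA14A at −0.17, all with overlapping groups, and 7 others lay between −0.078 and 0. SNORA67 read 6.03, 5.66 and 6.19 in the controls and 4.72, 6.25 and 6.04 under the knockdown label, where replicate 1 alone was low. SNORA33, in the ribosomal protein gene RPS12, read 2.07, 1.90 and 1.98 and then 2.05, 2.58 and 3.17, so that the knockdown-labelled arrays were spread from the control level upwards (difference 0.62, limma adjusted p = 0.352). SNORA15 and SNORA70B had no overlap upwards but small differences, 0.31 and 0.25. Further probe sets of SNORA15, with values equal to each other, were at 0.24 with overlap. SNORA70B lay in the dimmest bin of signal, where 19.1% of all genes did not overlap upwards.

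**Figure D2:**
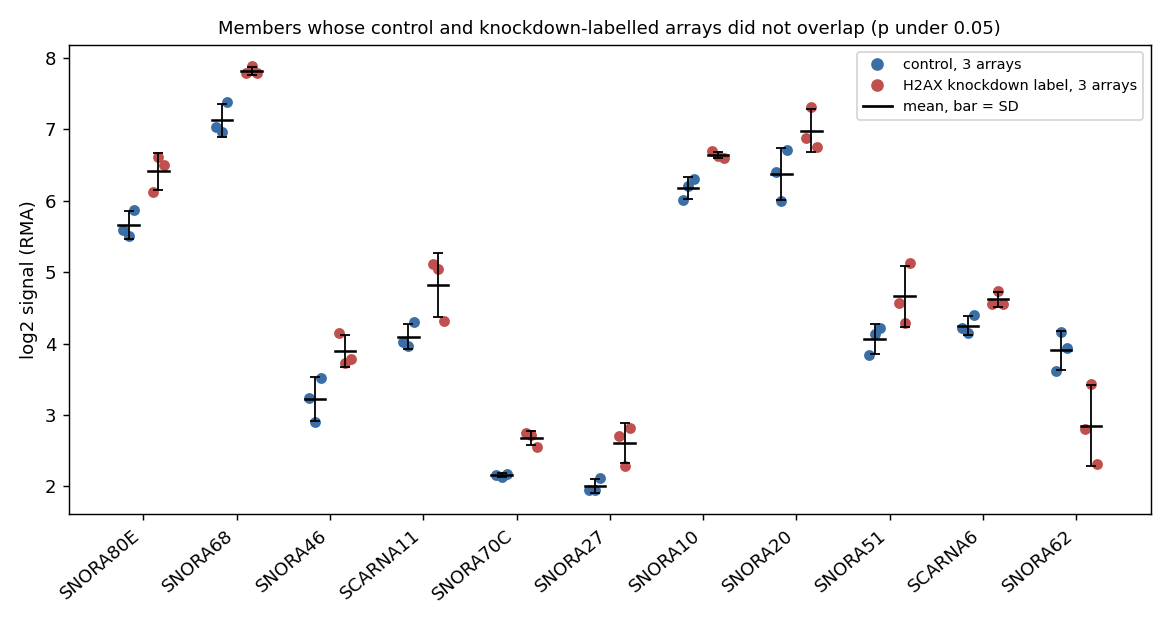
Log2 signal (vertical axis) in each control array (blue) and knockdown-labelled array (red) for the 11 RNAs whose groups did not overlap and whose unadjusted p was under 0.05; lines are means and bars SDs of 3 arrays. The first 10 RNAs are higher under the knockdown label and SNORA62, at the right, is lower.

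The 5 RNAs with the highest mean signal were SNORA3A, SNORA71D, SNORA23, SNORA22 and SNORA71C, and each was above 0. SNORA23, a 28S guide, read 9.02, 9.22 and 9.64 in the controls and 9.55, 9.89 and 9.67 under the knockdown label, where control replicate 3 overlapped with the second group (difference 0.41, unadjusted p = 0.0497, limma adjusted p = 0.411). SNORA3A read 10.57, 10.49 and 10.77 and then 10.82, 10.89 and 10.81, a small step of 0.23 with no overlap (limma adjusted p = 0.559). SNORA71D, an 18S guide, had a difference of 0.050, with a 95% interval of −0.29 to 0.39. The difference was 0.13 for SNORA22 and 0.16 for SNORA71C, both with overlapping groups and a limma adjusted p of 0.779 and 0.741. The differences of SNORA71D, SNORA22 and SNORA71C were thus within the spread of the arrays.

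The SCARNA as a group sat where the SNORA did. Of the 16, 14 were above 0 with a median of 0.18, and of the 61 SNORA, 49 were above 0 with a median of 0.16. The difference between the classes was not tested. At an unadjusted p under 0.05, 3 SCARNA were higher and 0 lower, where 3.78% and 8.38% of genes were, and 3 had no overlap upwards, where 7.17% of genes had none.

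SCARNA11, an H/ACA RNA also called ACA57, had the largest difference of the SCARNA. It read 4.02, 3.97 and 4.30 in the controls and 5.11, 5.04 and 4.31 under the knockdown label. Replicates 1 and 2 under the label stood well above the controls, and replicate 3 only just above control replicate 3. The difference was 0.72 ± 0.213 (SE, limma adjusted p = 0.28).

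The 4 measured SCARNA that carry both C/D and H/ACA elements were all above 0, with a median of 0.26. SCARNA5 (U87) read 4.82, 4.58 and 5.47 in the controls and 5.21, 5.85 and 5.70 under the knockdown label, a difference of 0.63 with overlap through control replicate 3 (limma adjusted p = 0.349). SCARNA6 (U88) read 4.22, 4.15 and 4.40 and then 4.56, 4.74 and 4.56, a difference of 0.37 without overlap (adjusted p = 0.389). SCARNA10 (U85) and SCARNA12 (U89) were at 0.11 and 0.15, with limma adjusted p of 0.85 and 0.761. SCARNA5 and SCARNA6 come from the same gene, ATG16L1, and are not independent of each other.

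Among the 8 measured SCARNA with H/ACA elements alone, 7 were above 0 and the median was 0.21. After SCARNA11 came SCARNA1 (0.37), SCARNA8 (0.30), SCARNA23 (0.21, with no overlap), SCARNA16 (0.20), SCARNA4 (0.14) and SCARNA14 (0.11). SCARNA23 lay in the dimmest bin of signal, where 19.1% of all genes did not overlap upwards. Its difference was 0.017 after quantile normalization and 0.019 after cyclic loess. SCARNA22 was at −0.22, with 4.36, 4.54 and 4.61 in the controls and 4.06, 4.40 and 4.37 under the knockdown label. None of these 7 had a limma adjusted p below 0.42. The signs of SCARNA4, SCARNA10 and SCARNA14 turned in at least 1 of the alternative settings, so no direction is drawn for them.

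The SCARNA built of C/D elements alone showed little. SCARNA7 (U90) and SCARNA17 (U91) were both at 0.098, and SCARNA9 was at −0.38 with controls that ranged from 1.88 to 3.35. Other probe sets of the same genes, which the choice by signal had left out, read differently: that of SCARNA17 was at −0.14 and that of SCARNA9 at 0.20. For these 2 RNAs the direction thus depends on the probe set, and that of SCARNA7 turned without control replicate 2. The related SCARNA9L was at 0.45 in its brighter probe set and 0.18 in its dimmer one, and both overlapped between the groups.

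In each array the 77 RNAs can be read against the mean of the 3 controls. Their median was −0.066, −0.12 and 0.16 in control replicates 1, 2 and 3 and 0.16, 0.28 and 0.15 in knockdown-labelled replicates 1, 2 and 3. Knockdown-labelled replicate 2 was the highest, and control replicate 3 was level with the other 2 knockdown-labelled arrays. The groups thus overlapped at the level of the whole set. Over all genes the same medians stayed between −0.029 and 0.003. Leaving out control replicate 3 raised the median difference of the RNAs to 0.24 and the RNAs with no overlap upwards from 14 to 27, where 10.7% of genes then had none. That count was 22 without control replicate 2, where 17.0% of genes had none, and 23 without knockdown-labelled replicate 1, where 10.4% had none.

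The median of the RNAs was above 0 at every level of signal when they were set beside genes of like brightness, in 5 equal bins of all genes by mean signal. In the dimmest bin the 19 RNAs had a median of 0.21 and all genes one of 0.15. In bins 2, 3 and 4 the RNAs (12, 8 and 12) had medians of 0.22, 0.14 and 0.21, and all genes 0.068, −0.0078 and −0.10. Bin 2 was the most divided, with 7 of its 12 RNAs above 0. In the brightest bin the 26 RNAs had a median of 0.14 with 21 above 0, where all genes had a median of −0.25 and 14.7% of them were above 0. In that bin 5 of the 26 had no overlap upwards, where 1.17% of its genes did, and 6 were higher at an unadjusted p under 0.05, where 0.896% were. Counted over all bins, 62 of the 77 lay above the median of the genes in their own bin. These shares are descriptions, since RNAs on the same arrays share the same array effects. Why the RNAs departed from bright genes in general was not tested.

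**Figure D3:**
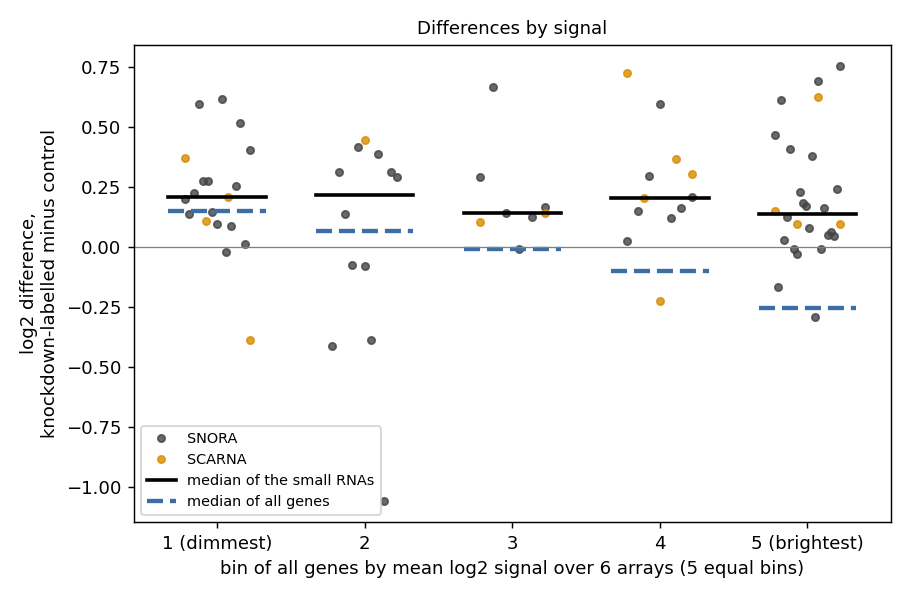
Log2 difference (knockdown-labelled minus control, vertical axis) of each of the 77 RNAs by bin of all genes in mean signal (5 equal bins, horizontal axis); black lines are medians of the RNAs and dashed blue lines medians of all genes. The median of all genes goes from 0.15 to −0.25 across the bins, while that of the RNAs stays between 0.14 and 0.22.

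By RefSeq positions, each of the 77 RNAs lay within the span of at least 1 named gene, and 69 within exactly 1, taken here as the host (58 distinct genes; strand was not compared). The remaining 8, among them SCARNA11 within CHD4 and the antisense CHD4-AS1, were given no host. The RNAs were short, 123 to 236 bases for SNORA and 125 to 421 for SCARNA. Ribosomal protein genes held 12 of them (11 above 0, median 0.20), translation factor genes 4 (4 above 0, median 0.26), other protein-coding genes 46 (37 above 0, median 0.18) and non-coding hosts 7 (5 above 0, median 0.065).

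Many genes of the translation machinery start transcription in a run of pyrimidines, the terminal oligopyrimidine tract that ties their translation to growth signals. The start windows below, from RefSeq on GRCh38.p14, show hosts with and without a run of pyrimidines near the start, for RNAs described above. Each runs 5′ to 3′ from 10 bases before the annotated start to 20 bases from it onwards, and capitals mark the longest run of at least 6 bases that are each C or T.
RPSA, host of SNORA62 and SNORA6, chr3:39406710-39406739, plus strand: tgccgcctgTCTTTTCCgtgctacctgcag
RPL21, host of SNORA27, chr13:27251548-27251577, plus strand: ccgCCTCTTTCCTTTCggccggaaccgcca
IPO7, host of SNORA23, chr11:9384642-9384671, plus strand: gCTTCTCTTTCCTTTCgcgccggttgccgc
TCP1, host of SNORA20 and SNORA29, chr6:159789583-159789612, minus strand: tgtgttacccagtagctcctgggacatcgc
KHDC4, host of SNORA80E and SCARNA4, chr1:155934394-155934423, minus strand: gagaggtggtagtcggatagttggcgggtg
Of the 58 hosts 49 were in the promoter table, and 24 of these (49.0%) held such a run in the sense strand of this window, against 30.1% of all 27305 promoters in the table. The share with a run was 70.0% among the 10 ribosomal protein and translation factor hosts and 43.6% among the 39 others. Of those 10, the translation factor hosts EEF1B2, EIF1AX and EIF5 held none and each ribosomal protein host held one. The RNAs did not part by whether the host had a run. The median difference was 0.16 for the 28 RNAs whose host had one (23 above 0). It was 0.16 for the 31 whose host had none (25 above 0). A run of these letters describes the window and is no measured start or binding site.

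Most hosts were below 0 and most of their RNAs above it. A host with a probe set of its own was measured for 58 RNAs (48 distinct hosts). Host probe sets are mostly numbered next to that of their RNA, but those of RPL12, EIF1AX, RAP1B and RPL27A are not. Whether these read the host or a similar sequence elsewhere was not tested. Of the 48 hosts 43 were below 0, with a median of −0.25, and at an unadjusted p under 0.05 the lower ones numbered 11 and the higher ones 0, where 8.38% and 3.78% of genes were. The 11 are 22.9% of the hosts and include RPL12, EIF1AX and RAP1B. The brightest bin held 26 of the 48 hosts and 8 of the 11, and 22.9% of all its genes were lower. The other hosts lay in dimmer bins, where fewer genes were lower (11.3% in bin 4 and 5.32% in bin 3). The share over all 48 hosts and that of the brightest bin are thus not of like brightness. No host passed the threshold over all genes (smallest limma adjusted p = 0.29). In 44 of the 58 pairs the small RNA was above 0 and the host below 0, in 9 both were below, in 4 both above and in 1 the reverse. The difference of the small RNA was above that of its host in 52 pairs, by a median of 0.42. Hosts were bright, at a median of the 84.2th percentile of genes against the 52.6th for the RNAs in these pairs. All genes had a median of −0.25 in the brightest bin and −0.10 in bin 4. The part of brightness in the gap between RNA and host was not tested.

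**Figure D4:**
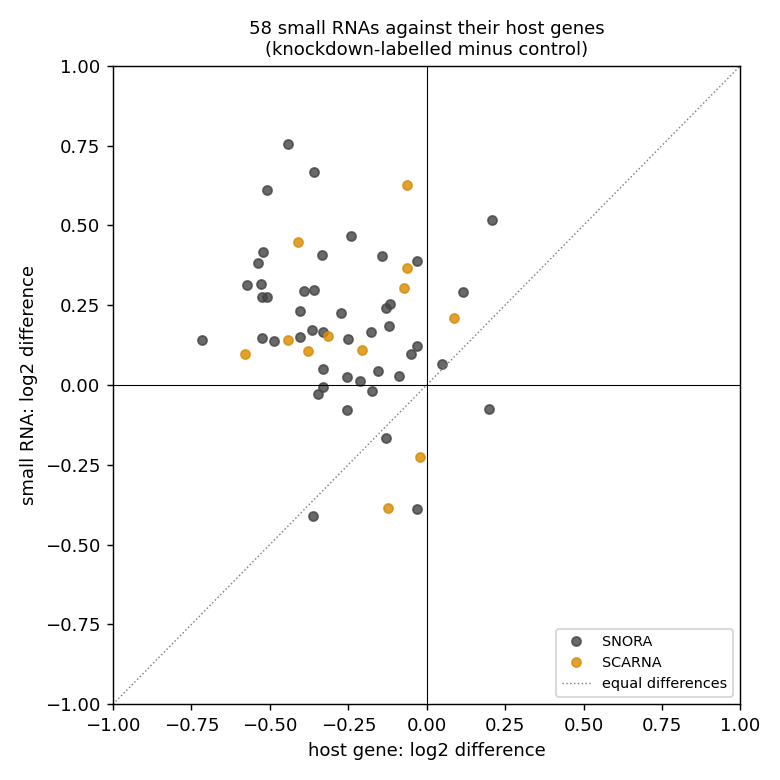
Log2 difference (knockdown-labelled minus control) of each small RNA (vertical axis) against that of its host gene (horizontal axis) for 58 pairs from 48 hosts; the dotted line marks equal differences. Of the points 44 lie at the upper left, with the RNA above 0 and the host below 0, and 52 lie above the dotted line.

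KHDC4, an RNA-binding protein gene that holds SNORA80E and SCARNA4, read 5.40, 5.16 and 5.02 in the controls and 4.52, 4.65 and 5.08 under the knockdown label. The groups overlapped, with a difference of −0.44 (limma adjusted p = 0.38), while its RNAs were at 0.75 and 0.14. CNOT1, the scaffold of the CCR4-NOT deadenylase, was at −0.36 with 7.06, 6.59 and 6.73 and then 6.19, 6.51 and 6.59, and its RNAs SNORA46 and SNORA50A were at 0.67 and 0.30. TCP1, a subunit of the cytosolic chaperonin, was at −0.51, with SNORA20 at 0.61 and SNORA29 at 0.28. ATG16L1, an autophagy gene, had a small difference (−0.064, with 4.84, 4.77 and 4.70 and then 4.70, 4.75 and 4.67) although SCARNA5 and SCARNA6 were at 0.63 and 0.37.

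RPL12, a large-subunit ribosomal protein gene, was at −0.54 and its RNA SNORA65 at 0.38, and RPS2, of the small subunit, was at −0.24 with SNORA10 at 0.47. RPL27A was at −0.40, with SNORA3A at 0.23 and SNORA3B at 0.15, and IPO7, an importin, at −0.33 with SNORA23 at 0.41. The non-coding host SNHG17 was at −0.33, and SNORA71A, SNORA71C and SNORA71D at −0.0075, 0.16 and 0.050. Ribosomal protein genes have many near-identical copies, so single values of these hosts are uncertain. Across the 58 pairs, which share arrays and partly hosts, the 2 differences had a Pearson r of −0.19 and a Spearman rho of −0.22 as a description.

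Per array the contrast within pairs was wider than that of the RNAs alone. The median of the small RNA minus its host, relative to the controls, was −0.23, 0.023 and 0.13 in control replicates 1, 2 and 3, and 0.58, 0.53 and 0.26 in knockdown-labelled replicates 1, 2 and 3. The knockdown-labelled arrays were all above the controls on this measure. The hosts alone were at 0.17, −0.13 and 0.004 and then −0.38, −0.16 and −0.15, with control replicate 2 near knockdown-labelled replicates 2 and 3. Knockdown-labelled replicate 1, where bright genes read lowest (median −0.26 for genes in the brighter 50% of the list), also had the lowest hosts and the widest gap.

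**Figure D5:**
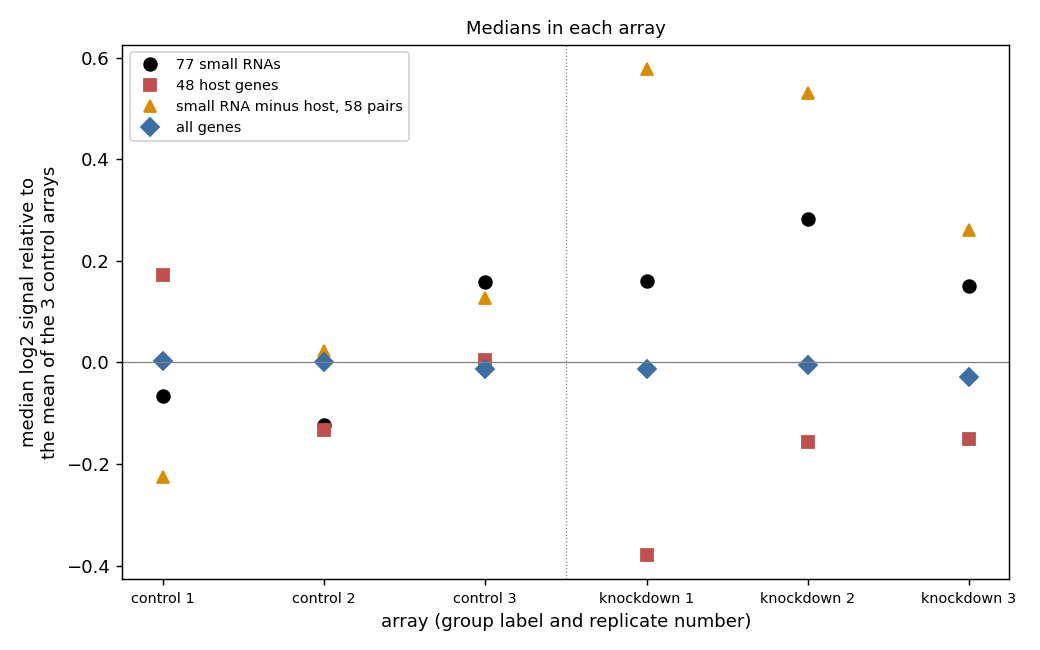
Median log2 signal relative to the mean of the 3 controls (vertical axis) in each array (horizontal axis) for the 77 RNAs (circles), 48 host genes (squares), the RNA minus its host in 58 pairs (triangles) and all genes (diamonds). The RNAs of control replicate 3 sit at 0.16, level with knockdown-labelled replicates 1 and 3, while the triangles of the knockdown-labelled arrays all lie above those of the controls.

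RNAs of 1 host did not always lie on the same side of 0. There were 9 hosts with more than 1 measured RNA, and in 6 of them all RNAs were above 0 (ATG16L1, CNOT1, KANSL2, KHDC4, RPL27A and TCP1). In RPSA, SNORA62 was at −1.06 and SNORA6 at 0.13, with SNORA6 reading 3.33, 2.997 and 3.76 in the controls and 2.81, 3.90 and 3.75 under the knockdown label. In TBRG4, SNORA5A was at −0.39, SNORA5B at 0.39 and SNORA5C at 0.12. SNORA5A read 3.45, 2.48 and 3.32 and then 2.33, 2.97 and 2.79, and SNORA5B 2.23, 3.10 and 2.05 and then 3.20, 2.75 and 2.58, so control replicate 2 stood apart in opposite directions and both RNAs overlapped between the groups. The difference between RNAs of 1 host was not tested. Copies of a family have similar sequences, which makes their probe sets uncertain: 25 of the 77 belong to 9 families with more than 1 measured copy. The 6 copies of SNORA70 (B to G) were all above 0, from 0.012 to 0.52. SNORA70B, SNORA70C, SNORA70D and SNORA70F lay in the dimmest bin of signal, where 81.7% of all genes were above 0. Both copies of SNORA14 were below 0 (−0.41 and −0.17), and the 3 copies of SNORA80 were at 0.045 to 0.75.

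A further 20 SNORA and SCARNA symbols were measured only on probe sets shared with other genes and are not among the 77. The 24 such probe sets with distinct values were split, 13 above 0 and 11 below, with a median of 0.039. Those shared with the host TAF1D were above 0 (SNORA40 at 0.72, SNORA1 at 0.52 and SNORA8 at 0.29, and 0.16 for a further SNORA40 probe set), and those that read SNORA70 together with RPL10 were below 0, from −0.48 to −0.14. A probe set of a snoRNA and its host mixes both transcripts, so these values are kept apart.

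The proteins of the H/ACA particle overlapped between the groups. NOP10 read 7.57, 7.18 and 7.28 in the controls and 6.73, 7.25 and 6.91 under the knockdown label, a difference of −0.38 with overlap (95% interval −0.78 to 0.018, limma adjusted p = 0.427). NHP2 was at −0.27, DKC1 at −0.16 and GAR1 at 0.12, with 95% intervals that all include 0 and limma adjusted p from 0.595 to 0.848. Of 8 measured assembly factors 7 were below 0 (median −0.12), with 1 lower at an unadjusted p under 0.05, where 8.38% of all genes were. That 1 was RPAP3, of the R2TP complex that helps to build the particle, at −0.64 (limma adjusted p = 0.276). The median signal of the assembly factors lay at the 79.9th percentile, at the upper edge of bin 4. All genes had a median of −0.10 in bin 4 and −0.25 in bin 5, with 33.9% and 14.7% above 0. A departure of the assembly factors from genes of like brightness was not tested.

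Most Cajal body proteins were below 0, 14 of the 17 measured, with a median of −0.33. At an unadjusted p under 0.05, 5 of the 17 (29.4%) were lower and 0 higher, and none passed over all genes in limma. Of all genes 8.38% were lower, and 11.3% of those in bin 4 of signal, where the median of these proteins lay, and 22.9% of those in bin 5. ICE2 and ICE1, subunits of the little elongation complex, which supports transcription of small nuclear RNA genes, were at −0.70 and −0.60, and STRAP, which binds the SMN complex, at −0.65. COIL, the coilin scaffold of the Cajal body, named after its value was seen, read 6.14, 5.72 and 5.88 in the controls and 5.42, 5.43 and 5.45 under the knockdown label, a difference of −0.48 without overlap (limma adjusted p = 0.314). Of 22 measured genes of snoRNA processing and decay 18 were below 0 (median −0.19). Their median signal also lay in bin 4, where all genes had a median of −0.10 and 33.9% were above 0. EXOSC1, an exosome subunit, was at −0.55 with overlap (unadjusted p = 0.0159, limma adjusted p = 0.333). It was the 1 gene of the 22 (4.55%) lower at an unadjusted p under 0.05, fewer than the 8.38% of all genes. The 12 stand-alone pseudouridine synthases, which need no guide RNA, were 6 above and 6 below 0, with a median of 0.003. Of the C/D particle's proteins 2 were measured, both below 0, with NOP58 at −0.71 (limma adjusted p = 0.224).

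Other small non-coding RNAs leaned the same way as the H/ACA RNAs. Of 12 measured small nuclear and related RNAs 10 were above 0, with a median of 0.22. RNU12, the U12 RNA of the minor spliceosome, was the 1 higher at an unadjusted p under 0.05 (0.61, limma adjusted p = 0.29). Of all genes 3.78% were higher, and 8.33% of these RNAs. TERC, the telomerase RNA, which itself ends in an H/ACA domain and binds dyskerin, went against them: it read 4.50, 4.86 and 5.16 in the controls and 4.35, 4.78 and 4.26 under the knockdown label, a difference of −0.38 with overlap (95% interval −0.82 to 0.061). The C/D box snoRNAs (SNORD, 115 measured) had 107 above 0 and a median of 0.29, with 38 higher at an unadjusted p under 0.05, where 3.78% of genes were, and 1 past the threshold, where 0.0326% were. The list of small nuclear and related RNAs also names some SNORD, so the groups are not defined as separate sets. SNORD were dim, at a median of the 36.5th percentile, in bin 2 of signal. In that bin 63.9% of all genes were above 0, with a median of 0.068. Their difference from the 77 H/ACA and Cajal body RNAs was not tested.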

How the data were processed

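The deposited values are log2 signals of 33297 probe sets on each of 6 Affymetrix arrays, made by the authors with RMA, per the submitters' processing notes; the log2 scale was read from the values. The array medians ran from 3.38 to 3.53. Of these, 19460 carry 1 gene symbol in the annotation table used, 1754 several and 12083 none. For each of 18417 genes the single-gene probe set with the highest mean was kept, with no filter. Genes were tested with limma 3.58.1 (R 4.3.3; lmFit and eBayes, no covariate, 2-sided, Benjamini-Hochberg over all genes, threshold 0.05) and the procedure was tested on simulated data. The simulated noise was independent for each gene, so that test does not cover array effects shared by many genes. The samples of a group are independent experiments per the labels' design text, and the number of arrays limits the precision. Hosts were RefSeq genes (GRCh38.p14) whose span holds the RNA; that table gives no strand, so the planned match by strand was not made. Figures were drawn with matplotlib 3.10.9.

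The RNAs, the 10 gene lists, the tests and the alternatives were chosen with earlier results of these data known. RNAs described were those past the threshold (none), up to 12 per direction with the smallest p among those under 0.05 without overlap, every SCARNA, the 5 brightest, their hosts, H2AX, the H/ACA core proteins and up to 3 genes per other list with p under 0.05; others were named after their values were seen. Alternatives were a replicate block, a filter on low signals, quantile normalization, subtraction of array medians, cyclic loess, averaging a gene's probe sets, testing all single-gene probe sets, limma's trend and robust options, weighting arrays by quality, and leaving out 1 array at a time. No sequence of these RNAs was used here.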

Additional observations from a re-analysis of the deposited data

How the results depend on the processing

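The lean upwards kept its direction in all 15 alternatives, with a median difference of the RNAs of 0.12 to 0.24, 68.8% to 87.0% of them above 0, and a median 0.12 to 0.29 above that of all genes. No RNA passed the threshold except with array weights (2). Over all genes 6 passed, but 3 with the replicate block, 3 with the mean of all probe sets, 16 among genes at or above the median signal, 0 after quantile normalization or cyclic loess (1495 and 1511 at an unadjusted p under 0.05), 191 with array weights, and 0 to 9 with 1 array left out (0 without control replicate 1 or 3 or knockdown-labelled replicate 1 or 2, with 944, 1380, 1479 and 2296 at an unadjusted limma p under 0.05; leaving out control replicate 2 gave 1 and knockdown-labelled replicate 3 gave 9). RNAs without overlap numbered 14 upwards and 1 downwards (7.17% and 9.82% of all genes), 16 to 27 and 1 to 5 with 1 array left out (9.42% to 17.0% and 12.3% to 20.4% of all genes), 8 and 0 of the 41 at or above the median signal (2.4% and 16.3%), and 10 and 2 after subtraction of array medians (5.43% and 9.87%). The 16, without knockdown-labelled replicate 3, stood beside 13.9% of all genes, and the 5 downwards, without control replicate 2, beside 20.4%. Of those 41, 34 were above 0, and 27 of their 28 pairs had the RNA above its host; fewer genes enter there. Over the alternatives, values of the 30 RNAs followed turned sign 13 times: SCARNA14 after quantile normalization (−0.083), cyclic loess (−0.10) and without knockdown-labelled replicate 1 (−0.027; −0.027 to 0.24 with 1 array left out), SCARNA10 without control replicate 2 (−0.069) and knockdown-labelled replicate 2 (−0.019; range −0.069 to 0.24), SCARNA4 with array weights (−0.038) and without knockdown-labelled replicate 2 (−0.025; range −0.025 to 0.33), SCARNA7 with array weights (−0.17) and without control replicate 2 (−0.023; range −0.023 to 0.28), SCARNA17 with all probe sets averaged (−0.023), SNORA71D with array weights (−0.010) and without control replicate 2 (−0.017; range −0.017 to 0.11), and SNORA22 without control replicate 2 (−0.0043; range −0.0043 to 0.22). The cause was not tested.

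The replicate numbers did not pair the samples: same-numbered arrays had correlations of −0.31, −0.025 and 0.070 in their deviations from the group means. With the replicate block 0 RNAs passed, and 11 were higher and 1 lower at an unadjusted limma p under 0.05, against 13 and 1 without it. Over all 18417 genes, in either direction, 1830 were under 0.05 with the block and 2240 without it. The values hold no measure of background, so dim RNAs were not called absent.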
